A study of Homo sapiens with 14 samples.

Results

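The cytosolic ribosomal protein genes of HEK293T cells were followed through an s4U labeling and PDP series. HEK293T is an immortalized human embryonic kidney line. The rule took genes by name and annotation only, as protein-coding genes whose symbol is RPL or RPS with a number, RPSA, or RPLP0 to RPLP2, with chromosome Y left out. The rule used no measured value, but this gene family was chosen with earlier results of these data known. This gave 86 of the 57820 genes in the tables (20345 of them protein-coding): 32 proteins of the small 40S subunit, 43 of the large 60S subunit, 3 of the ribosomal stalk, and 8 paralogs whose symbols end in L or L1. Each of the 86 had at least 1 fragment in some library.

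The ribosome joins a small subunit, which reads the mRNA, and a large subunit, which forms the peptide bond, and each ribosomal protein is needed in about equal number. Most mRNAs of these proteins begin with a C followed by a run of pyrimidines, the 5' terminal oligopyrimidine (TOP) tract, through which growth signals control their translation together. They are short, abundant and long known as stable mRNAs.

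The sequencing method, AMUC-seq, reads 4-thiouridine (s4U), a uridine analog that cells build into new RNA, after acrylonitrile has modified it so that it is copied as C. Fragments with a T-to-C mismatch are then counted as marked or labeled, although the 24 h tables give mismatches without naming their type. In the 24 h experiment, cells received s4U with later acrylonitrile treatment of the RNA, acrylonitrile treatment alone, s4U alone, or neither (untreated). The s4U dose was 50 µM in the protocol and for s4U alone, but the labels of the s4U plus acrylonitrile samples state 500 µM. In the PDP experiment, cells received 0, 4 or 8 µM PDP, a pyridostatin analog that binds G-quadruplexes, 20 min before 1 h with 500 µM s4U, and all 6 RNA samples were treated with acrylonitrile. Each of the 7 groups had 2 libraries of poly(A) RNA. The labels do not say whether replicates were separate cultures, so p-values measure only the spread between these libraries.

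Libraries held 6074118 to 17228999 fragments in the 24 h experiment and 9770956 to 22363992 in the PDP experiment. In the fixed list of markers, VIM, KRT8 and KRT18 were present in every library, whereas CD3E and HBB were at 0 and PTPRC did not exceed 0.0763 FPM (fragments per 1000000 of the library). COL1A1, a collagen gene of the same list, was also present in every library, at 21.5 to 93.1 FPM. ALB, a liver gene, stood at 10.5 and 20.0 FPM after s4U plus acrylonitrile, 31.2 and 85.6 after acrylonitrile alone, 5.99 and 4.06 after s4U alone and 9.69 and 10.0 in untreated cells, and at 0 to 0.0947 in the PDP experiment. APOA1, another liver gene, stood between 0.403 and 5.93 FPM over all libraries. NEFM and PAX2, also expressed by this line, were lower in the 4 libraries labeled for 24 h (16.1 to 25.1 and 2.95 to 3.82 FPM) than in the 4 without s4U (80.3 to 108 and 26.6 to 30.5). The part of these differences in the results on ribosomal protein genes was not tested. The 2 libraries of s4U alone stood apart from each other, and the counts of calls between s4U alone and untreated cells are given with and without each.

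The start sites of the genes are shown because the TOP tract is the shared sequence feature that the choice of genes did not use. RefSeq promoters (GRCh38.p14) matched 68 of the 86 genes by symbol. Each line gives 10 bases before an annotated start and 15 from it on, 5' to 3' on the gene's strand, with the unbroken pyrimidine run that begins at the start in capitals. The first 6 carry a tract and recur in the results below as stalk, 40S or 60S genes.
RPSA (chr3:39406710-39406734, + strand): tgccgcctgtCTTTTCCgtgctacc
RPLP0 (chr12:120201097-120201121, - strand): ggcgcgaggcCCTTCTCTCgccagg
RPL21 (chr13:27251548-27251572, + strand): ccgcctctttCCTTTCggccggaac
RPS6 (chr9:19380222-19380246, - strand): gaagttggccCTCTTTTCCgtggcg
RPS19 (chr19:41860245-41860269, + strand): ccccgtcgttCCCTTTCCCCTggct
RPL35 (chr9:124861943-124861967, - strand): cgcctacttcCTCTTTCCCTCggag
RPL4 (chr15:66504841-66504865, - strand): cgggagtggtaagcacttccttttc
RPL10A (chr6:35468391-35468415, + strand): aagacatgctagtctcttttccggt
RPL7L1 (chr6:42879606-42879630, + strand): gtgcggcgccgtagctaggagcgga
RPL36AL (chr14:49620612-49620636, - strand): tcttccctttCCTgttaggcgagag
RPS27L (chr15:63157463-63157487, - strand): gatgccgagcgcagatcgcttgcag
The last 5 have no tract at an annotated start. In RPL4 and RPL10A a pyrimidine run begins a few bases after that start. Such runs were not counted, so a gene without a counted tract can still have one at a nearby start. A tract was counted as C at the start followed by at least 4 C or T on the gene's strand. It was found in 47 of the 68 genes (69.1%), against 5.14% of the 27305 genes in the promoter table. It was present in 18 of 24 40S genes, 25 of 35 60S genes and all 3 stalk genes, but in 1 of 6 paralogs (RPL22L1). A possible G-quadruplex, written as 4 runs of GGG or longer separated by 1 to 7 bases on either strand, lay in the 300-base promoter window of 8 of the 68 genes (11.8%), against 27.9% of all genes. A match describes the letters in these windows and no more.

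Ribosomal protein genes took a larger share of the libraries after 24 h of s4U. Their share of gene fragments was 8.84% and 8.17% after s4U plus acrylonitrile, against 2.93% and 2.90% after acrylonitrile alone. It was 9.25% and 5.34% after s4U alone, against 3.22% and 3.23% in untreated cells. The s4U libraries lay above their controls in both pairs, and s4U replicate 1 lay far above replicate 2. In the PDP experiment the share was 3.11% and 3.10% at 0 µM, 3.01% and 3.14% at 4 µM, and 3.05% and 2.94% at 8 µM, so that the doses overlapped. In bulk samples, more transcripts of these genes and fewer transcripts of others give the same share and cannot be told apart.

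**Figure D1:**
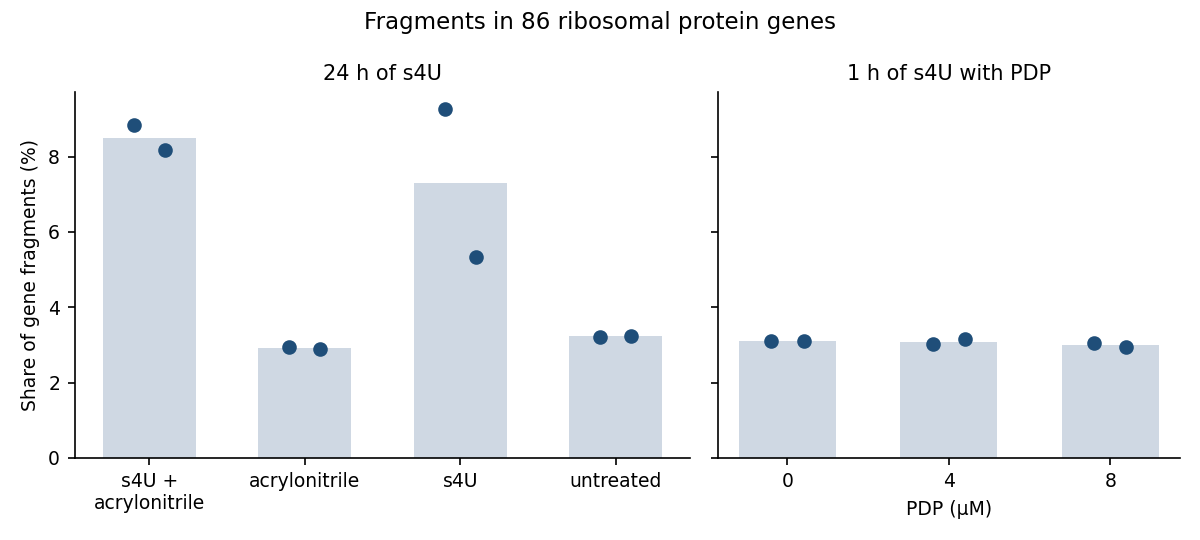
Share of all gene fragments that fell in the 86 ribosomal protein genes (%), with a point per library and a bar at the mean of 2 libraries, for the 24 h experiment (left) and the PDP doses in µM (right). The s4U plus acrylonitrile libraries sit at 8.84% and 8.17% and the acrylonitrile libraries at 2.93% and 2.90%, while all 6 PDP libraries lie between 2.94% and 3.14%.

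The change was shared by nearly all of the genes. Of the 86, 84 passed the filter on low counts in the 24 h experiment (RPL3L and RPL10L, which are known as tissue-restricted paralogs, did not). Between s4U plus acrylonitrile and acrylonitrile alone, 81 of 84 rose and 0 fell (edgeR quasi-likelihood test, adjusted p under 0.05 over all genes), where 33.2% of all 18914 genes were called higher and 31.1% lower. The median log2 fold change was 2.05 over the genes and 0.05 over all genes tested. Between s4U alone and untreated cells, again 81 of 84 rose and 0 fell, with 35.8% of all genes called higher and 34.7% lower, and the median was 1.71, against 0.02 over all genes. The libraries of the groups did not overlap, with s4U above, in 83 of 84 genes with acrylonitrile and in 82 of 84 without, where 43.1% and 43.0% of all genes did so.

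By part of the ribosome, all 32 40S genes rose in both comparisons (median 2.13 with acrylonitrile and 1.79 without). Of the 43 60S genes, 43 and 41 rose (medians 2.04 and 1.73), and all 3 stalk genes rose in both (2.0 and 1.82). The paralogs differed: 3 of 6 tested rose with acrylonitrile (median 0.62) and 5 of 6 without (1.14). FAU, which encodes a ribosomal protein fused to a ubiquitin-like protein, rose in both comparisons. Of 19 other TOP mRNAs, among them translation elongation factors, 17 and 9 rose (medians 0.99 and 0.28). Of 78 mitochondrial ribosomal protein genes, which build the separate ribosome of the mitochondrion, 54 rose and 2 fell with acrylonitrile, and 66 rose and 1 fell without (medians 0.97 and 1.02). Without s4U replicate 1, the genes that rose after s4U alone were 31 40S, 42 60S, 3 stalk, 3 paralog, 12 other TOP and 64 mitochondrial genes. Without s4U replicate 2 they were 32, 42, 3, 6, 11 and 68 in the same order. The differences between these lists were not tested.

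**Figure D2:**
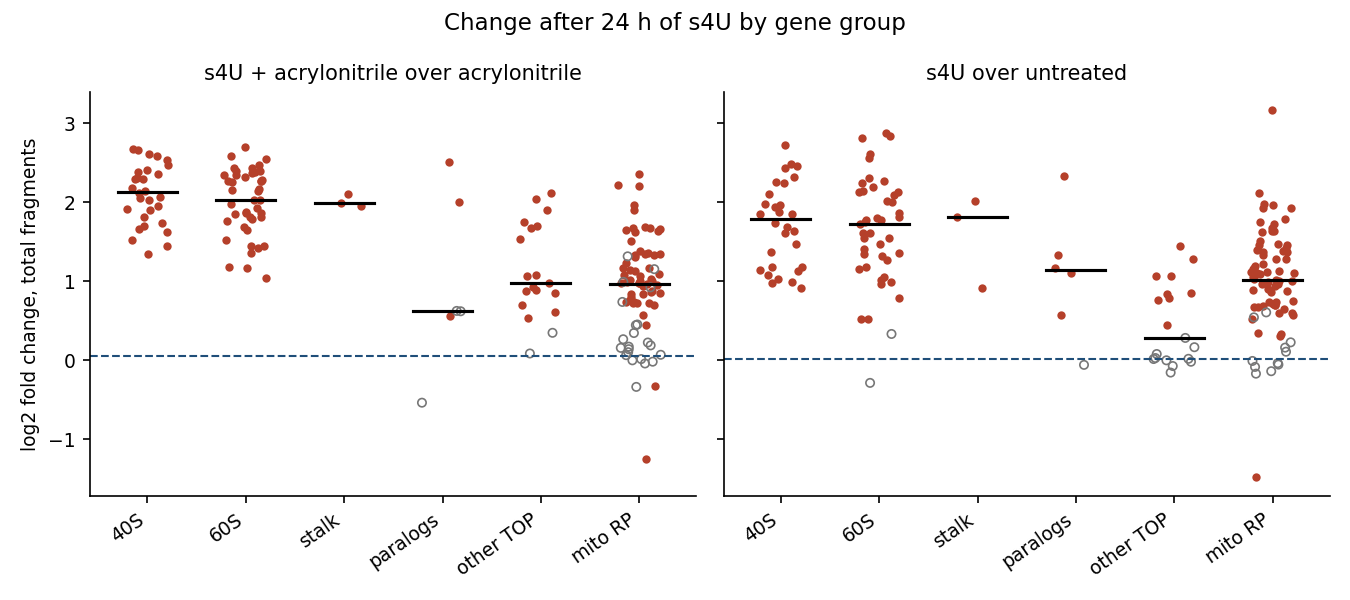
Log2 fold change of total fragments after 24 h of s4U for each gene (points, filled where the edgeR adjusted p was under 0.05) by gene list, with the median over all tested genes of the list as a bar and the median over all genes as a dashed line. A few genes not reported by name are not drawn as points. The 40S, 60S and stalk medians lie between 2.0 and 2.13 with acrylonitrile (left) and between 1.73 and 1.82 without (right), above those of the mitochondrial genes at 0.97 and 1.02.

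Values per library follow for a fixed panel of genes and for some at the ends of this range. They are fragments per 1000000 after TMM scaling (CPM), a scaling that sets the typical gene equal between libraries. RPS6, the 40S protein phosphorylated by S6 kinase, had 1009.7 and 887 CPM after s4U plus acrylonitrile, against 184 and 156 CPM after acrylonitrile alone. It had 1109 and 848 CPM after s4U alone, against 464 and 457 CPM in untreated cells. The groups did not overlap in either pair, and RPS6 rose by 2.48 (SE 0.17, adjusted p = 2.14e-06) and 1.09 (SE 0.17, adjusted p = 0.000215) on the log2 scale.

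RPSA, the 40S protein also known as the laminin receptor precursor, had 1868 and 1374 CPM after s4U plus acrylonitrile, against 389.8 and 387 CPM after acrylonitrile alone. It had 1141 and 1053 CPM after s4U alone, against 552 and 562 CPM in untreated cells. Both s4U groups lay wholly above their controls, and RPSA rose by 2.06 (SE 0.17, adjusted p = 5.44e-06) and 0.98 (SE 0.16, adjusted p = 0.000409).

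In the stalk, which recruits the elongation factors, RPLP0 had 2749.7 and 2185 CPM after s4U plus acrylonitrile, against 582 and 561 CPM after acrylonitrile alone. It had 1226 and 1404 CPM after s4U alone, against 699 and 697 CPM in untreated cells. RPLP0 rose by 2.11 and 0.91 on the log2 scale (adjusted p = 3.81e-06 and 0.000497). Its partners RPLP1 and RPLP2 rose by 2.0 and 1.96 with acrylonitrile, and by 2.02 and 1.82 without.

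RPL26, a 60S protein near the exit of the peptide tunnel, had the largest change with acrylonitrile among the genes reported by name, a few of the 86 being counted but not named: 694 and 578 CPM after s4U plus acrylonitrile, against 103 and 92.8 CPM after acrylonitrile alone. This was a rise of 2.70 (SE 0.29, adjusted p = 2.79e-05). RPL39 and RPL41, among the smallest proteins of the 60S subunit, showed how far the s4U libraries stood apart. RPL39 had 1806 and 335 CPM after s4U alone, against 147 and 145 CPM in untreated cells (2.88, SE 0.59, adjusted p = 0.00146). RPL41 had 1927 and 371 CPM after s4U alone, against 165 and 161 CPM in untreated cells (2.82, SE 0.56, adjusted p = 0.00119). In both genes replicate 1 lay several-fold above replicate 2, and even the lower library lay above both untreated libraries.

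The exceptions were few. RPL3, which lines the peptidyl transferase center, had 1448 and 1486 CPM after s4U alone, against 1164 and 1163 CPM in untreated cells, a difference of 0.33 that missed the threshold (SE 0.14, adjusted p = 0.0536), although the groups did not overlap. RPL3 rose with acrylonitrile, with 4062 and 3827 CPM after s4U plus acrylonitrile, against 1772 and 1702 CPM after acrylonitrile alone (1.18, adjusted p = 5.73e-05). RPL4, a 60S protein that reaches into the peptide tunnel, had 619 and 743 CPM after s4U alone, against 830.2 and 829 CPM in untreated cells, with both s4U libraries lower (-0.28, SE 0.15, adjusted p = 0.116). With acrylonitrile RPL4 was higher in both s4U libraries, at 1218 and 1061 CPM, against 593 and 517 CPM after acrylonitrile alone.

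Among the paralogs, RPL39L, a close copy of RPL39 best known from testis, had 18.9 and 19 CPM after s4U plus acrylonitrile, against 26.9 and 28.1 CPM after acrylonitrile alone (-0.54, SE 0.29, adjusted p = 0.128). It had 17.4 and 8.24 CPM after s4U alone, against 12.9 and 13.5 CPM in untreated cells (-0.057, SE 0.28, adjusted p = 0.866). The s4U libraries lay below the controls in the first pair and on both sides of them in the other. RPL7L1 had 222 and 133 CPM after s4U plus acrylonitrile, against 127 and 113 CPM after acrylonitrile alone, and rose by 0.56 (SE 0.21, adjusted p = 0.0361). RPL36AL missed the threshold with acrylonitrile (0.62, SE 0.43, adjusted p = 0.225), and so did RPL22L1 (0.63, SE 0.73, adjusted p = 0.469).

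The tract genes and the rest of the matched genes were both largely higher. Of genes with a tract, 46 of 47 rose with acrylonitrile (median 2.07) and 47 of 47 without (1.77). Of genes with none at an annotated start, 19 of 20 rose with acrylonitrile (median 1.91) and 18 of 20 without (1.18). These 20 include genes such as RPL4 and RPL10A, whose pyrimidine run begins a few bases later. Without s4U replicate 1 the counts after s4U alone were 46 of 47 with a tract and 18 of 20 with none, and without replicate 2 they were 47 and 19.

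The size of the change after s4U alone depended on s4U replicate 1. Without that library 79 genes rose and 1 fell, and the median was 1.08. Without replicate 2, 83 rose and 1 fell, and the median was 2.09. Transcripts of these genes are short (median 785 bases, against 2715 over the genes tested). A smooth length term per library lowered the medians to 1.58 with acrylonitrile (78 rose) and 1.27 without (77 rose).

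The effect of s4U was also compared between RNA treated and not treated with acrylonitrile. It was larger with acrylonitrile in 9 genes and smaller in 0 of 84 (interaction contrast, edgeR, adjusted p under 0.05, chosen after the data had been seen), where 1.28% of all genes were called larger and 0.354% smaller. Besides RPL4 (1.32, adjusted p = 0.0228), these included RPS6, whose effect was larger by 1.39 (SE 0.23, adjusted p = 0.0259), RPS4X (1.31, adjusted p = 0.0224) and RPLP0 (1.20, adjusted p = 0.0329). The count rested on single libraries. It was 78 without s4U replicate 1, 22 larger and 24 smaller without s4U replicate 2, and 6 without s4U plus acrylonitrile replicate 2. It was 0 without s4U plus acrylonitrile replicate 1 or any of the 4 libraries that had no s4U.

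Acrylonitrile treatment alone moved the genes in both directions. Against untreated cells, 16 of 84 were higher and 28 lower after acrylonitrile alone (median -0.39), with 29.1% and 30.7% of all genes called. RPS15, a 40S protein at the decoding site, had 1421 and 1545 CPM after acrylonitrile alone, against 453 and 459 CPM in untreated cells (1.70, SE 0.29, adjusted p = 0.000622). RPL13, a 60S protein, had 1984 and 2156 CPM after acrylonitrile alone, against 740.3 and 735 CPM in untreated cells (1.49, SE 0.17, adjusted p = 4.29e-05). In both genes the groups were far apart, with acrylonitrile above.

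RPS3A, a 40S protein, had 97.8 and 96.7 CPM after acrylonitrile alone, against 321 and 316 CPM in untreated cells, and fell by 1.71 (SE 0.19, adjusted p = 4.75e-05). RPL5, which binds the 5S rRNA, had 189.5 and 179 CPM after acrylonitrile alone, against 535 and 537 CPM in untreated cells, and fell by 1.54 (SE 0.17, adjusted p = 4.66e-05). Over 83 of the genes, GC-rich transcripts ranked higher by this change (Spearman's rho of 0.83 with transcript GC, and 0.71 over all genes, with the same libraries behind every point). With a GC term per library, 9 were higher and 10 lower. ALB was higher after acrylonitrile alone, as given above, and its part was not tested.

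Between s4U plus acrylonitrile and s4U alone, 24 of 84 were higher and 14 lower (median 0.03), with 31.0% and 34.1% of all genes called. RPL13 had the largest rise, with 4298 and 5051 CPM after s4U plus acrylonitrile, against 1155 and 959 CPM after s4U alone (2.14, SE 0.17, adjusted p = 6.06e-06). RPL22L1, a paralog that can stand in for RPL22 in mouse, had the largest fall, with 3.01 and 3.53 CPM after s4U plus acrylonitrile, against 46.6 and 16.2 CPM after s4U alone. It fell by 3.26 (SE 0.48, adjusted p = 0.000195). Without s4U replicate 1 the counts were 60 higher and 9 lower, and without replicate 2 they were 24 and 43.

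A smaller share of these mRNAs was marked after 24 h than of most genes, a difference that was not tested. With s4U plus acrylonitrile, the median gene had 49.6% of its fragments marked, against 7.44% after acrylonitrile alone. It had 11.2% after s4U alone, against 7.17% in untreated cells. All 81 genes with 20 or more fragments in each library had a higher marked share in s4U plus acrylonitrile than in acrylonitrile alone (edgeR test of marked against unmarked fragments), as did 99.9% of the 11858 genes tested. The median over those 11858 genes was 91.3%, with quartiles of 85.1% and 94.1%.

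The genes spread over a wide range. Of the 81, 3 lay under 30%, 38 between 30% and 50%, 35 between 50% and 70%, and 5 above 70%, of which 4 were paralogs. RPSA was lowest, with 20.5% and 21.7% marked after s4U plus acrylonitrile, against 6.99% and 7.38% after acrylonitrile alone. RPL21, a 60S protein, had 23.8% and 20.9% after s4U plus acrylonitrile, against 4.20% and 6.73% after acrylonitrile alone. RPLP0 had 27.2% and 32.1% after s4U plus acrylonitrile, against 7.22% and 7.02% after acrylonitrile alone. All 3 lay above their background. RPSA and RPL21 overlapped with each other and lay below the rest in both libraries, whereas RPLP0 overlapped with the next genes, RPS18 (30.6% and 29.8%) and RPL12 (30.2% and 30.6%).

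Among the core genes reported by name, RPL15, a 60S protein, was highest, with 69.1% and 69.9% marked after s4U plus acrylonitrile, against 6.31% and 6.49% after acrylonitrile alone. RPL35A followed with 62.7% and 63.8%, RPL17 with 62.6% and 61.9% and RPL18 with 60.7% and 62.3%, neighbours that differed by little more than their replicates. The 4 paralogs measured lay apart from all of these, between 88.2% and 92.0% in each library. RPL7L1 had 90.4% and 89.8%, RPL39L and RPL36AL each had 88.9% and 92.0%, and RPL26L1 had 88.2% and 89.8%. Of the core genes, 76 ranged from 20.5% to 69.9%.

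By list, the median marked share was 45.4% for 40S, 52.4% for 60S, 40% for stalk and 90.3% for paralog genes. It was 60.2% for the other TOP mRNAs and 90.3% for mitochondrial ribosomal protein genes. Across the 81 genes the marked share followed the T content of the transcript weakly (rho 0.08), and its length little more (rho 0.25), while the 2 libraries ranked the genes nearly alike (rho 0.99). These correlations are across genes of the same libraries, which are not independent. After s4U alone, where no conversion was made, 80 of 81 genes had a higher marked share in replicate 1 than in replicate 2 (medians 12.9% and 9.29%).

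**Figure D3:**
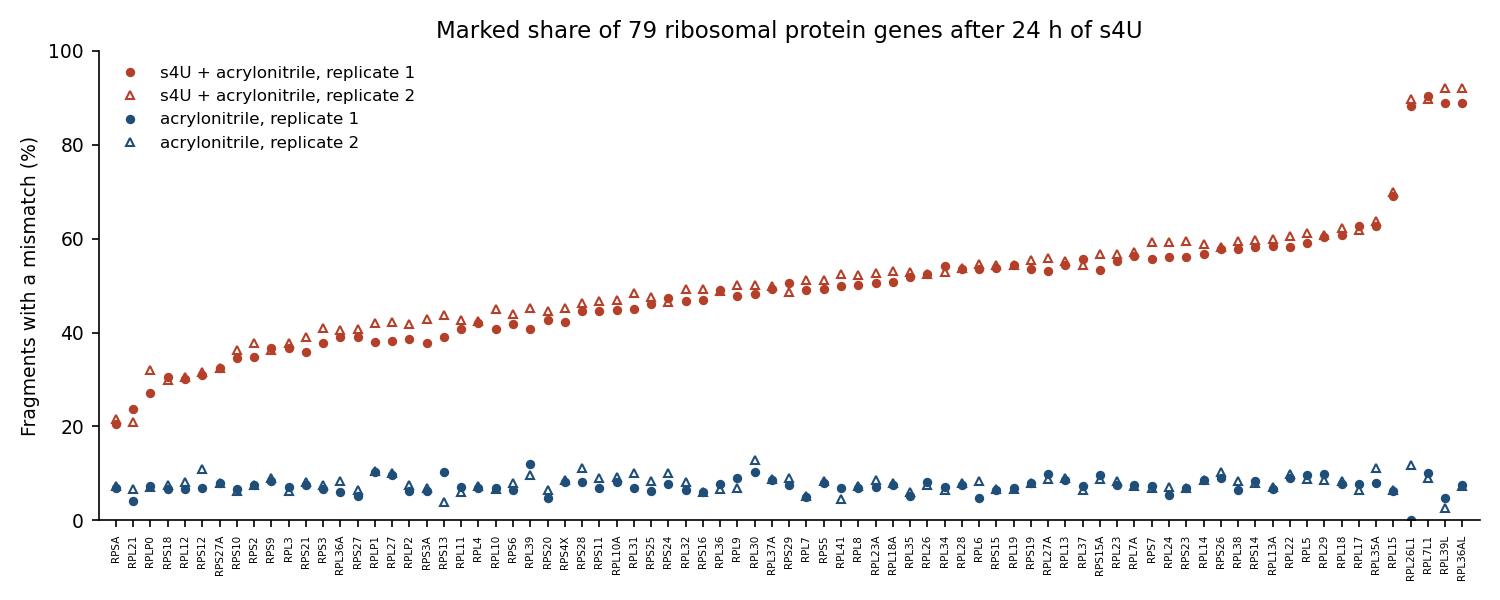
Marked share (%) of each library's fragments, those with a mismatch, for 79 of the 81 genes with 20 or more fragments per library, ordered by their mean after s4U plus acrylonitrile (red), with acrylonitrile alone in blue. The core genes drawn climb from 20.5% for RPSA to 69.9% for RPL15, and the paralogs sit between 88.2% and 92.0%, while nearly all acrylonitrile values stay near their median of 7.44%.

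Fragments with no mismatch were then compared on the scale of the total fragments, a comparison chosen after the data had been seen. Unmarked fragments were higher after s4U plus acrylonitrile than after acrylonitrile alone in 65 of 84 genes and lower in 4, with a median log2 fold change of 1.18. Of all genes 1.79% were higher and 83.1% lower, with a median of -3.38. Summed over the genes, unmarked fragments came to 56439 and 52230 CPM after s4U plus acrylonitrile, against 27366 and 27414 CPM after acrylonitrile alone. In 75 of 84 genes the lower unmarked value after s4U plus acrylonitrile lay above the higher value of all fragments after acrylonitrile alone.

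RPS12, a 40S protein, had 399.9 and 318 unmarked CPM after s4U plus acrylonitrile, against 85.3 and 70.6 after acrylonitrile alone, and its unmarked fragments rose by 2.20 (SE 0.31, adjusted p = 2.03e-05). RPS27A, made as a fusion with ubiquitin, had 299.9 and 238 unmarked CPM after s4U plus acrylonitrile, against 64.1 and 62.3 after acrylonitrile alone (2.09, SE 0.28, adjusted p = 1.44e-05). The groups did not overlap in either gene. The 4 genes whose unmarked fragments fell were all paralogs. RPL39L had 2.10 and 1.51 unmarked CPM after s4U plus acrylonitrile, against 25.6 and 27.3 after acrylonitrile alone, and fell by 3.84 (SE 0.39, adjusted p = 8.57e-07). RPL7L1 had 21.4 and 13.6 unmarked CPM after s4U plus acrylonitrile, against 114 and 103 after acrylonitrile alone, and fell by 2.62 (SE 0.21, adjusted p = 9.28e-08). Of the 78 mitochondrial ribosomal protein genes, 0 were higher and 72 lower. Unmarked CPM depends on the scaling of the total fragments, and fewer transcripts of other genes cannot be told apart from more of these.

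After 1 h of s4U at 0 µM PDP, little of these mRNAs was labeled. Of the 86 genes, 83 had 1 FPM or more, and the median labeled share was 9.96%, against 20.3% over 13209 protein-coding genes. The same genes had a median marked share of 7.36% after acrylonitrile alone in the 24 h experiment, where no s4U was given, so the median excess was 2.40 percentage points. In 73 of 83 genes both libraries lay above the gene's own acrylonitrile share, and in 4 both lay below it. That background comes from libraries made in another experiment, whose mismatches are not named by type. If other types are counted there, the background is too high for the 1 h shares.

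A few genes had far higher labeled shares. RPL22, a 60S protein, had 30.4% and 30.4% labeled at 0 µM PDP. RPL10A, a 60S protein, had 28.4% and 27.2%, RPS29, a small zinc-binding 40S protein, 23.2% and 23.6%, and RPS23, a 40S protein at the decoding center, 19.7% and 18.9%. All of these lay far above the gene's own acrylonitrile share, which was 9.31% for RPL22, 8.71% for RPL10A, 8.05% for RPS29 and 6.90% for RPS23. Only 11 genes exceeded their own background by more than 5 points. RPL22L1 had the highest share, but from 15 and 21 fragments.

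At the other end, RPL21 had 5.81% and 6.31% labeled, against 5.30% after acrylonitrile alone. RPL7 had 5.82% and 6.44%, against 5.04%, and RPL41 had 5.41% and 7.95%, against 5.92%, each background being that of the gene after acrylonitrile alone. The 1 h libraries of RPL21 lay between its 2 acrylonitrile libraries (4.20% and 6.73%), and those of RPL41 overlapped with its own (6.91% and 4.59%). Neither RPL21 nor RPL41 thus stood clear of this background at this depth, with the limit on mismatch type given above. The order of genes after 1 h was only loosely that after 24 h (rho 0.30 over 81 genes, against 0.47 over 11857 genes). RPL22, first by labeled share among genes with 10 FPM or more, had 58.2% and 60.5% of its fragments marked after 24 h of s4U plus acrylonitrile, and RPL10A had 44.7% and 46.9%, both within the range of the other 60S genes.

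The half-life was computed as the study's methods do, from the labeled share after 60 min. The median over 83 genes was 6.71 h, with 6.75 h for 40S, 6.75 h for 60S, 6.97 h for stalk and 6.24 h for paralog genes. RPL22 had 1.91 ± 0.0036 h, RPL10A 2.13 ± 0.077 h, RPS29 2.60 ± 0.034 h and RPS23 3.24 ± 0.102 h (SD, n = 2 libraries). The longest were RPL21 with 11.1 ± 0.67 h, RPL7 with 11 ± 0.81 h, RPS20 with 10.4 ± 0.94 h and RPL41 with 10.4 ± 2.90 h (SD, n = 2). These 4 did not differ beyond their spread, and of them only RPL7 had a labeled share above both of its acrylonitrile libraries (4.88% and 5.26%) in both 1 h libraries. The value rested on how background was treated, and that background has the limit on mismatch type given above. After subtraction of each gene's own acrylonitrile share the median was 27.5 h over the 73 genes that still had a value, and with the share over all genes (7.63%) it was 28.2 h over 68. The genes without a value were those at or under background. RPL22 then had 2.93 and 2.92 h, and RPL21 had 138 and 68.7 h. By the same formula, RPL22 with either value and RPL10A with 2.13 h would be almost wholly marked after 24 h. Their marked shares after 24 h of s4U plus acrylonitrile, given above, were far lower. A half-life of 6.71 h would likewise give more than the median of 49.6% marked then. The cause of this difference was not tested.

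Total fragments were mostly higher with PDP on the FPM scale, as they were over all genes. At 4 µM, 61 of 83 genes tested were higher and 10 lower than at 0 µM, with 51.4% and 6.99% of 15473 genes called. At 8 µM, 54 were higher and 13 lower, with 51.8% and 8.71% of all genes called. The FPM scale shifted the median of all genes by 0.32 and 0.33 on the log2 scale. On the TMM scale, which removes that shift, 32 were higher and 26 lower at 4 µM, with 26.2% and 24.9% of all genes called. At 8 µM, 27 were higher and 30 lower, with 27.8% and 26.0% of all genes called. On the FPM scale 5 of 6 paralogs tested were higher and 1 lower at each dose. No ribosomal protein gene was called between 8 and 4 µM by edgeR, with 0.233% of all genes called higher and 0.0905% lower (13 of 83 had an unadjusted p under 0.05), and 25 were lower once PDP8 replicate 1 was left out.

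RPS2, a 40S protein, had the largest fall in total fragments. It had 2249 and 2256 FPM at 0 µM, 1614 and 1748 FPM at 4 µM, and 1605 and 1464 FPM at 8 µM, with both doses below 0 µM. It fell by 0.42 at 4 µM and by 0.55 at 8 µM (SE 0.042 each, adjusted p = 1.92e-10 and 5.15e-13). Fragments of RPS2 are uncertain, since 14.9% of those on the gene and its pseudogenes in the 24 h experiment fell on pseudogenes. RPS15 had 1234 and 1210.1 FPM at 0 µM, 945 and 1037 FPM at 4 µM, and 977 and 897 FPM at 8 µM. It fell by 0.30 and 0.38 (adjusted p = 5.34e-07 and 5.93e-09).

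RPS12 had 63.1 and 61.6 FPM at 0 µM, 116 and 122 FPM at 4 µM, and 121 and 113 FPM at 8 µM, and rose by 0.91 at 8 µM (SE 0.067, adjusted p = 2.62e-13). RPS29 had 15.5 and 18.1 FPM at 0 µM, 32.5 and 32.6 FPM at 4 µM, and 32.4 and 30.5 FPM at 8 µM, and rose by 0.95 at 4 µM (SE 0.11, adjusted p = 1.72e-09). In both genes the treated libraries lay above 0 µM and the doses lay close together. The largest rise was that of RPS27L, a paralog of RPS27 known as a p53 target, with 1.74 and 1.80 FPM at 0 µM, 4.15 and 4.21 FPM at 4 µM, and 4.38 and 3.65 FPM at 8 µM. RPS27L rose by 1.24 and 1.19 (SE 0.25 each, adjusted p = 5.98e-05 and 0.000117). The changes of RPS2, RPS15, RPS12, RPS29 and RPS27L kept their direction and their call on the TMM scale.

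Labeled fragments moved less evenly. Since the median labeled share was 9.96%, against a background of 7.36% for the same genes with no s4U, these counts hold background mismatches as well as RNA made within the 1 h. At 4 µM, 18 of 82 genes were higher and 17 lower than at 0 µM, with 9.24% and 19.8% of 14236 genes called. At 8 µM, 11 were higher and 28 lower, with 10.4% and 27.3% of all genes called. Between 8 and 4 µM, 0 were higher and 10 lower, with 0.738% and 4.87% of all genes called, and 35 had an unadjusted p under 0.05. By list, 7 40S genes were higher and 7 lower at 4 µM, and 11 60S genes were higher and 8 lower. Unlabeled fragments were higher in 62 of 83 genes and lower in 6 at 4 µM, with 59.5% and 4.55% of 14553 genes called. At 8 µM they were higher in 59 and lower in 10, with 60.1% and 5.75% of all genes called. Between 8 and 4 µM, 0 of 83 were called in unlabeled fragments by edgeR, with 0.186% and 0.0412% of all genes called, and 9 had an unadjusted p under 0.05.

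RPL39L had the largest falls in labeled fragments, with 3.28 and 2.46 FPM at 0 µM, 1.31 and 1.39 FPM at 4 µM, and 1.43 and 1.80 FPM at 8 µM, from 26 to 33 labeled fragments in each library. It fell by 1.08 and 0.83 (SE 0.29 and 0.28, adjusted p = 0.00144 and 0.0119). Neither call of RPL39L passed without replicate 1 of 0 µM, and that at 8 µM did not pass without replicate 1 of 8 µM or with DESeq2, which gave no adjusted p at 4 µM. RPS2 came next, from many more fragments. Its labeled level was 211 and 214 FPM at 0 µM, 138 and 148 FPM at 4 µM, and 125 and 118 FPM at 8 µM, and it fell by 0.57 and 0.81 (SE 0.060 and 0.061, adjusted p = 3.60e-17 and 2.44e-30). RPL36, a 60S protein, had 76.2 and 76.5 labeled FPM at 0 µM, 49.8 and 58.5 at 4 µM, and 48.7 and 42.0 at 8 µM, and fell by 0.75 at 8 µM (SE 0.074, adjusted p = 2.95e-19). In these genes all treated libraries lay below both libraries at 0 µM.

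RPS4X, the X-linked 40S protein, moved the other way, with 31.6 and 31.7 labeled FPM at 0 µM, 49.8 and 48.3 at 4 µM, and 47.2 and 41 at 8 µM. RPS4X rose by 0.63 at 4 µM (SE 0.084, adjusted p = 1.63e-11). RPS12 had 7.06 and 5.87 labeled FPM at 0 µM, 9.01 and 9.76 at 4 µM, and 10.2 and 9.36 at 8 µM, and rose by 0.61 at 8 µM (SE 0.16, adjusted p = 0.000802). Both genes were higher in every treated library than in either library at 0 µM.

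The labeled share of these genes was lower with PDP, as it was over all genes. Summed over the 86 genes it was 10.1% and 10.1% at 0 µM, 8.80% and 8.76% at 4 µM, and 8.40% and 8.16% at 8 µM. Over all genes it was 17.2% and 17.2%, 13.8% and 13.5%, and 12.5% and 13.2% at the same doses. Of 81 genes with 10 or more labeled fragments in each library, both libraries lay below 0 µM in 65 at 4 µM and in 70 at 8 µM, where 78.5% and 82.3% of 11512 genes did so. A test of labeled against unlabeled fragments within libraries (edgeR interaction) called the share lower in 38 of 82 genes and higher in 0 at 4 µM, with 45.9% and 0.262% of 14124 genes called. At 8 µM it was lower in 59 and higher in 0, with 54.0% and 0.637% of all genes called. By list, the share was lower at 8 µM in 26 of 31 40S, 28 of 43 60S, 3 of 3 stalk and 2 of 5 paralog genes. These shares still hold the background, and the difference between the ribosomal protein genes and the rest was not tested.

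The 4 fast-labeled genes fell in share at both doses, as most genes did. They were picked by their high share in the libraries at 0 µM, which favors a fall against those libraries. Their p-values are therefore given for description. RPL10A had 28.4% and 27.2% labeled at 0 µM, 18.2% and 18.0% at 4 µM, and 17.7% and 17.2% at 8 µM, and its labeled over unlabeled ratio fell by 0.80 and 0.86 on the log2 scale (SE 0.071 and 0.072, adjusted p = 7.85e-20 and 4.08e-22). RPL22 had 30.4% and 30.4% at 0 µM, 22.6% and 19.9% at 4 µM, and 20.5% and 22.1% at 8 µM, and fell by 0.70 at each dose (adjusted p = 7.09e-07 and 6.91e-07). These libraries did not overlap with 0 µM, while 4 and 8 µM overlapped for RPL22.

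RPS23 had 19.7% and 18.9% at 0 µM, 11.4% and 11.1% at 4 µM, and 11.3% and 13.6% at 8 µM, and fell by 0.91 and 0.76 (SE 0.13 each, adjusted p = 9.82e-10 and 1.39e-07). RPS29 had 23.2% and 23.6% at 0 µM, 15.1% and 11.7% at 4 µM, and 17.1% and 16.8% at 8 µM, and fell by 0.98 and 0.58 (SE 0.23 each, adjusted p = 0.000235 and 0.0255). For RPS29 the call at 8 µM was lost without either library at 0 µM. RPL3 had a smaller fall, with 10.0% and 10.1% at 0 µM, 9.85% and 9.74% at 4 µM, and 9.10% and 9.09% at 8 µM. Its ratio missed the threshold at 4 µM (-0.043, SE 0.050, adjusted p = 0.496) and fell by 0.16 at 8 µM (SE 0.051, adjusted p = 0.00487).

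**Figure D4:**
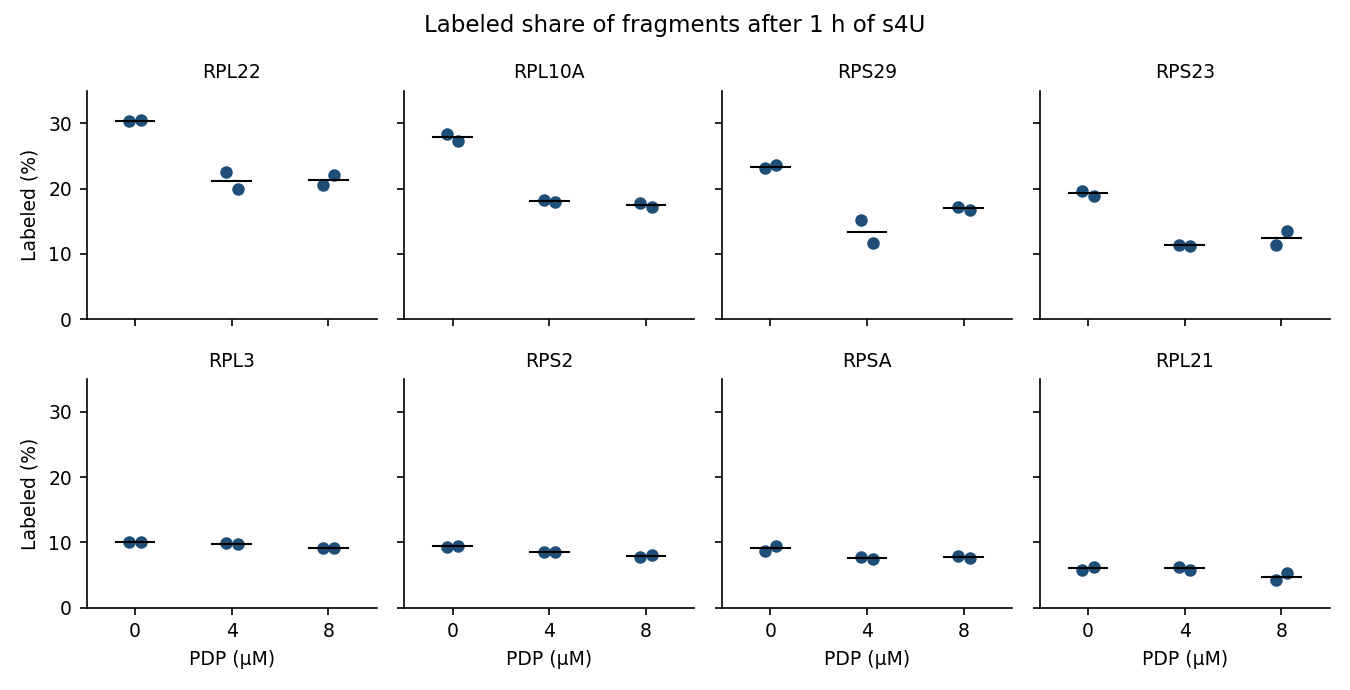
Labeled share of fragments (%) after 1 h of s4U against PDP dose (µM), with a point per library and a bar at the mean of 2 libraries, for the 4 fast-labeled genes (top) and 4 others (bottom). RPL22 lies at 30.4% and 30.4% at 0 µM and between 19.9% and 22.6% with PDP, whereas RPL3 lies between 9.09% and 10.1% throughout.

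With PDP, more fragments lay in the 4000 bp after the end of these genes, the window in which the study looked for transcription past the poly(A) site. The source of these fragments was not tested. Summed over the 86 windows, the level was 36.3 and 37.1 FPM at 0 µM, 56.3 and 56.3 FPM at 4 µM, and 83.4 and 95.7 FPM at 8 µM. The mean was 1.53 times that at 0 µM for 4 µM and 2.44 times for 8 µM. In the windows of 13126 other protein-coding genes the sum was 0.82 times that at 0 µM for 4 µM and 0.86 times for 8 µM. Per 1000 fragments on the gene itself, the windows held 1.41 and 1.44 fragments at 0 µM, 2.08 and 2.02 at 4 µM, and 3.10 and 3.76 at 8 µM, while those of the other genes held 5.02 and 5.03, 3.81 and 3.86, and 4.02 and 4.24. The doses did not overlap for the ribosomal protein genes, which began below the others and stayed below them. The sums were not tested.

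The sum was also higher in windows free of neighbouring genes. In 26 windows lay part of another gene on the same strand. The other 60 windows summed to 21.6 and 21.5 FPM at 0 µM, 30.1 and 28.8 FPM at 4 µM, and 39.2 and 45.9 FPM at 8 µM, which was 1.98 times at 8 µM. Without RPS15 and RPL36, which had the most fragments, the factor at 8 µM was 2.65. Both libraries lay above 0 µM in 38 of 83 genes at 4 µM and in 52 of 83 at 8 µM, where 14% and 20.3% of 13209 protein-coding genes did so. Both lay below in 5 and 3, where 7.98% and 6.84% of genes did so. Windows were sparse: 11 of 86 had no fragment in any library and 33 had none at 0 µM, and the libraries at 0 µM were the shallowest.

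The edgeR test of single windows was run with 3 filters. Among windows with a mean of 0.5 FPM or more at 0 µM, a filter chosen after the data had been seen, 18 of the genes' windows could be tested, of which 2 were higher and 1 lower at 4 µM, and 9 higher and 1 lower at 8 µM, where 3.52% and 5.45% of 2017 windows were called higher. With no filter, 4 and 17 of 75 windows were higher, where 0.414% and 1.17% of 20996 were. With a mean of 0.5 FPM or more over the 6 libraries, 27 windows were tested. At 4 µM 7 were higher and 1 lower (6.86% and 18.2% of 2173 windows called), at 8 µM 18 were higher and 1 lower (11.5% and 24.3% called), and between 8 and 4 µM 14 were higher and 1 lower (3.41% and 1.47% called). Windows could enter those last counts through the PDP libraries, so they are given for description. The values below come from that fit, and their p-values are likewise for description. RPL35, RPL38, RPL12 and RPS19 had a mean under 0.5 FPM at 0 µM and entered the fit through the PDP libraries. Each rise named below at 8 µM also passed with no filter and on the TMM scale. At 4 µM fewer windows passed with no filter, 4 against 7, so those calls depend more on the filter.

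RPS15 (GRCh37, chr19:1438358-1440583, + strand) held the most downstream fragments at 8 µM. Its window had 2.97 and 2.84 FPM at 0 µM, 9.91 and 9.72 FPM at 4 µM, and 18.4 and 17.6 FPM at 8 µM, and rose by 1.76 and 2.63 on the log2 scale (SE 0.19 and 0.18, adjusted p = 6.70e-15 and 1.69e-32). The doses were far apart. Its window overlaps AC027307.3 on the same strand, to which these fragments could also belong. The total fragments of RPS15 fell over the same doses, as given above.

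RPL13 (chr16:89627065-89630950, + strand), with no same-strand gene in its window, had 0.921 and 0.663 downstream FPM at 0 µM, 2.43 and 2.42 at 4 µM, and 4.07 and 5.88 at 8 µM. RPL13 rose by 1.62 and 2.63 (SE 0.35 and 0.31, adjusted p = 8.74e-05 and 9.73e-14). RPL35 (chr9:127620159-127624260, - strand), a 60S protein near the tunnel exit, also with no gene in the window, had 0.307 and 0.473 FPM at 0 µM, 1.62 and 1.75 FPM at 4 µM, and 4.61 and 4.03 FPM at 8 µM. RPL35 rose by 2.08 and 3.44 (SE 0.45 and 0.37, adjusted p = 9.05e-05 and 2.10e-15). In both genes the 3 doses did not overlap, and 3 to 9 fragments lay behind each value at 0 µM, against 36 to 108 with PDP.

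RPS19 (chr19:42363988-42376994, + strand), the 40S protein most often mutated in Diamond-Blackfan anemia, had 1 and 0 downstream fragments at 0 µM, 9 and 15 at 4 µM, and 43 and 37 at 8 µM. It passed the test at both doses (adjusted p = 0.00663 and 8.82e-10), and no fold is given against so few fragments. RPL38 (chr17:72199721-72206794, + strand), a 60S protein whose window overlaps TTYH2, had 0.307 and 0.189 FPM at 0 µM, 0.541 and 1.16 FPM at 4 µM, and 2.64 and 2.67 FPM at 8 µM, and rose by 3.39 at 8 µM (SE 0.49, adjusted p = 1.13e-09). RPL12 had 0.205 and 0.189 FPM at 0 µM, 0.541 and 0.851 FPM at 4 µM, and 1.70 and 1.31 FPM at 8 µM, and rose by 2.90 at 8 µM (SE 0.58, adjusted p = 1.09e-05). Each of these genes was lowest at 0 µM and highest at 8 µM in every library.

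Some windows went the other way. RPL36 (chr19:5674958-5691887, + strand) had 9.93 and 8.90 downstream FPM at 0 µM, 10.9 and 9.54 at 4 µM, and 5.50 and 8.33 at 8 µM, and fell by 0.46 at 8 µM (SE 0.16, adjusted p = 0.015). Both libraries at 8 µM lay below 0 µM, but the call was lost on the TMM scale (-0.24), with no filter, by DESeq2 and limma, and without PDP0 replicate 1 (-0.38) or PDP8 replicate 1 (-0.17). RPS3, a 40S protein at the mRNA entry, had 0.716 and 0.947 FPM at 0 µM, 0.586 and 0.314 FPM at 4 µM, and 0.626 and 0.435 FPM at 8 µM (-0.63, SE 0.49, adjusted p = 0.331). The treated libraries of RPS3 lay below 0 µM, on 7 to 14 fragments each.

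**Figure D5:**
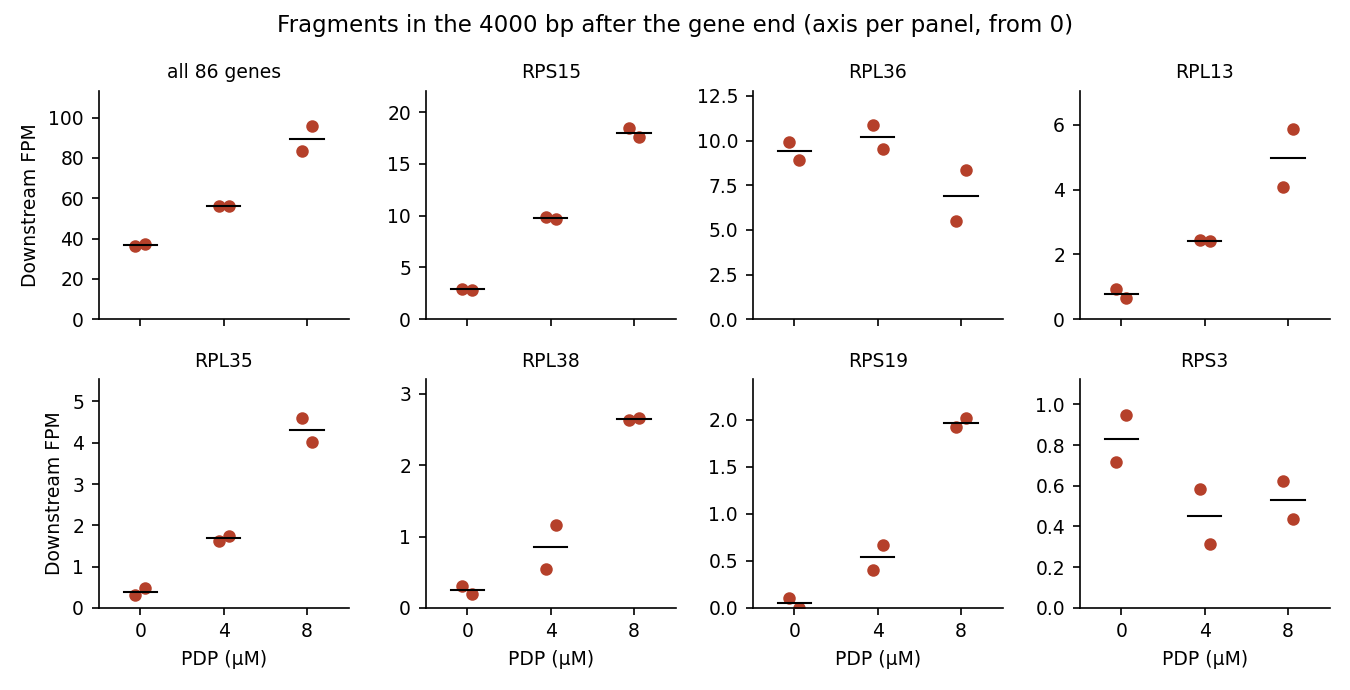
Fragments in the 4000 bp after the gene end (FPM, each panel with its own axis from 0) against PDP dose (µM), with a point per library and a bar at the mean of 2 libraries. The sum over the 86 genes climbs to 83.4 and 95.7 FPM at 8 µM, and RPS15, RPL13, RPL35, RPL38 and RPS19 climb with dose, while RPL36 and RPS3 are lower at 8 µM than at 0 µM.

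Upstream windows, before the start of the genes, did not share this pattern. Their sum was 67.8 and 66.5 FPM at 0 µM, 51.3 and 54.5 FPM at 4 µM, and 51.3 and 54.7 FPM at 8 µM. This was 0.79 times that at 0 µM at each dose, against 0.84 times in the windows of other protein-coding genes. Much of the sum lay in the window of RPL36AL, with 30.2 and 33.0 FPM at 0 µM. It had 20.4 and 22.7 FPM at 4 µM, and 19.8 and 24.7 FPM at 8 µM. Upstream windows were not screened for neighbouring genes. Of the 14 upstream windows that passed the filter, 0 were higher and 3 lower at 4 µM, and 0 higher and 4 lower at 8 µM, with 3.66% and 22.9% of 3715 windows called at 4 µM and 6.97% and 28.5% at 8 µM. Between 8 and 4 µM 0 were called by edgeR, and 0 had an unadjusted p under 0.05, with 0.404% and 0.296% of windows called. Both libraries lay above 0 µM in 13 of 83 genes at 4 µM and in 18 of 83 at 8 µM, where 15.1% and 18.9% of protein-coding genes did so.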

How the data were processed

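Poly(A) RNA of HEK293T cells was sequenced from 14 libraries, 8 in the 24 h experiment and 6 in the PDP experiment. The authors trimmed reads with cutadapt 1.18, reduced reads of identical sequence to 1, took out rRNA reads, aligned the rest to GRCh37 with HISAT2 2.1.0 and kept unique proper pairs. Mismatches at known variants or under a base quality of 41 were left out. The sources used do not name the counting tool. The 24 h tables hold deposited fragment counts per gene by number of mismatches, and the PDP tables hold deposited counts and FPM, the RPM unit of the authors, for total, labeled, unlabeled, upstream and downstream fragments. The 2 experiments were tested separately. Columns of samples from other series numbered 0, and no comparison computed by the authors was used.

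Genes were matched by gene identifier. edgeR 4.0.16 (R 4.3.3) fitted quasi-likelihood models with TMM scaling and the filterByExpr filter in the 24 h experiment. In the PDP experiment the FPM scale and a minimum mean FPM over the 6 libraries were used (1 FPM for total or unlabeled fragments, 0.5 FPM for labeled fragments and windows). All genes that passed were tested, with Benjamini-Hochberg adjustment at 0.05. Labeled and marked shares were tested as labeled against unlabeled fragments with a term for the library. Half-lives followed from the labeled share after 60 min. DESeq2 1.42.0, limma 3.58.1 with pseudocounts of 0.1 and 1, other filters, GC and length terms, a replicate block and leaving out each library were the alternatives. Simulated data were used to test a fit of total fragments, a fit of labeled fragments and the fit of the marked share. The interaction contrast and the fits of unmarked fragments and of windows were not tested in this way.

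The ribosomal protein genes, the comparison lists and the tests were chosen with earlier results of these data known. The text names a fixed panel of genes and the paralogs, the 3 largest and 3 smallest changes of a comparison among those that passed, and the 4 lowest and 4 highest by marked share or half-life. RPL6, RPL12 and, after s4U alone, RPL4 were chosen after their values were seen. A few of these genes enter the counts and medians but are not reported here by name. Genes with pseudogenes (75 of 86) or an overlapping same-strand gene (39 of 86) are uncertain where fragments could be split between copies.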

Additional observations from a re-analysis of the deposited data

Results flagged for a closer look

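The effect of 24 h of s4U differed between RNA treated and not treated with acrylonitrile in 9 ribosomal protein genes, by the interaction contrast in edgeR. In each the log2 effect was larger with acrylonitrile, among them by 1.41 in RPS3A, 1.39 in RPS6, 1.32 in RPL4, 1.31 in RPS4X, 1.20 in RPLP0, 1.11 in RPL6, 1.07 in RPL19 and 0.91 in RPL7A. No paralog was called. In RPL19 the levels were 2177 and 2528 CPM after s4U plus acrylonitrile, against 580.1 and 567 CPM after acrylonitrile alone, and 729.7 and 823 CPM after s4U alone, against 392 and 403 CPM in untreated cells. The s4U dose also differed by label between the groups with and without acrylonitrile, and the part of the dose cannot be told apart from that of acrylonitrile. Leaving out 1 library changed the number of such genes from 0 to 78, as given with the comparison.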

How the results depend on the processing

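With 120 pairs of a named gene and a comparison, 1174 results were recomputed under an alternative, leaving out those to which DESeq2 gave no adjusted p. Of these 1014 kept their direction and their side of the threshold, 135 no longer passed it, 22 newly passed it and 3 changed sign. The sign changed in RPL39L between s4U and untreated cells without s4U replicate 2 (0.40, against -0.68 without replicate 1), and in RPL36AL between s4U plus acrylonitrile and acrylonitrile alone with the length term (-0.046) and with the GC and length terms together (-0.43). Of 236 recomputed counts of genes, 166 stayed within 1.5 times. The cause of the other moves was not tested.

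In the 24 h experiment, the 28 genes lower after acrylonitrile alone than in untreated cells became 44 with library totals, 48 with no filter and 10 with the GC term. In the PDP experiment the counts at 4 and 8 µM against 0 µM depended on the scale. On the TMM scale 32 and 27 genes were higher in total fragments, 28 and 21 in unlabeled fragments, and 14 lower in labeled fragments at 8 µM. With DESeq2 the total counts were 27 and 21, the unlabeled ones 24 and 17, and the labeled ones 11 higher at 4 µM and 10 lower at 8 µM. With limma the labeled counts were 3 and 9 at a pseudocount of 0.1, and 9 and 17 at 1. Between 8 and 4 µM, 0 labeled calls were left with TMM, DESeq2 or limma at either pseudocount. Downstream windows higher at 4 µM numbered 4 with no filter, 3 with DESeq2 and 2 with the filter on 0 µM, and at 8 µM 11 with DESeq2 and 9 with that filter. Between 8 and 4 µM they numbered 7 with no filter, 2 with DESeq2, 0 and 6 with limma at 0.1 and 1, and 7 with the filter on 0 µM. Upstream windows lower at 4 µM numbered 1 with TMM, 0 with DESeq2 and 1 with limma at 0.1, and at 8 µM 0 with TMM, 2 with no filter and 0 with DESeq2. The median half-life of 6.71 h became 27.5 h and 28.2 h with the 2 background subtractions.

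When 1 library was left out, the number of genes called in the direction of most calls was 76 to 80 for s4U plus acrylonitrile against acrylonitrile, 76 to 83 for s4U against untreated, 8 to 22 for acrylonitrile against untreated, 18 to 60 for s4U plus acrylonitrile against s4U, 52 to 61 for unmarked fragments, 81 to 81 for the marked share and 0 to 78 for the interaction. For 4 µM, 8 µM and 8 against 4 µM it was 54 to 61, 50 to 59 and 0 to 25 for total, 10 to 14, 22 to 28 and 1 to 15 for labeled, 57 to 62, 52 to 63 and 0 to 20 for unlabeled, 3 to 6, 12 to 18 and 5 to 10 for downstream, and 1 to 3, 1 to 2 and 0 to 0 for upstream fragments. It was 23 to 31 and 43 to 59 for the labeled share, and the half-life was 6.58 to 6.74 h. A lone library is then assumed to vary like the other groups.

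With the replicate number as a block, 81 genes were higher for s4U plus acrylonitrile against acrylonitrile, 81 for s4U against untreated and 18 in downstream fragments at 8 µM, and 134 of 134 results kept their call. Same-numbered libraries were not treated as pairs, since no label ties them and their deviations correlated between -0.0246 and 0.0671.

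Each group had 2 libraries, and 33 downstream windows had no fragment at 0 µM.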
